A study of Mus musculus with 17 samples.

Results

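Glucocorticoid receptor target genes were followed in the diaphragm, the muscle that drives inspiration, of mice with and without tumors. The set was 9 genes taken by symbol from the expression table (Fkbp5, Tsc22d3, Klf9, Klf15, Zbtb16, Sgk1, Cebpd, Ddit4 and Sesn1), out of 47643 symbols listed. All 9 were among the 13305 genes that reached at least 1 TPM (transcripts per 1000000, a level corrected for gene length and sequencing depth) in at least 3 mice. The 17 mice were male, 4 months old and of the C57BL/6J strain. Control mice (n = 5) bore no tumor and received mock injections of bovine serum albumin in saline. Control + rFibcd1 mice (n = 5) bore no tumor and were injected intraperitoneally with rFibcd1, a recombinant fragment of the secreted protein Fibcd1. LLC mice (n = 3) carried subcutaneous tumors grown from Lewis lung carcinoma cells and received the mock injections, and LLC + rFibcd1 mice (n = 4) carried the same tumors and received rFibcd1. All tumors came from a single transplanted cell line placed under the skin, so the model holds no tumor of lung origin in its own organ. The hour of dissection is not given in the sources used here.

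Glucocorticoids are adrenal steroid hormones. They bind the glucocorticoid receptor (Nr3c1), which leaves its chaperone complex, enters the nucleus and binds DNA at palindromic elements. In skeletal muscle the hormone restrains protein synthesis and favors protein breakdown and amino acid catabolism, and it is a known contributor to muscle wasting. Its blood level follows the time of day and rises with stress and illness, and the receptor's targets in muscle rise and fall with it.

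The members fall into 3 kinds by what they do. Fkbp5, a cochaperone that lowers the receptor's affinity for hormone, Tsc22d3, a leucine zipper protein also called Gilz that carries part of the anti-inflammatory action, and Zbtb16, a zinc finger repressor, are widely used as readouts of the receptor. Klf9, Klf15 and Cebpd encode transcription factors. Sgk1 encodes a kinase that acts on ion channels and Foxo factors, while Ddit4 (also called Redd1) and Sesn1 restrain the growth kinase complex mTORC1.

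On build GRCm38 (GENCODE vM21), the members lie on 7 chromosomes, and all are protein-coding. Sesn1 (41809935 to 41908424, plus strand), Sgk1 (21882184 to 21999903, plus strand) and Ddit4 (59949669 to 59951834, minus strand) share chromosome 10. The others are Fkbp5 (chromosome 17, 28399094 to 28517527, minus strand), Tsc22d3 (chromosome X, 140539528 to 140600659, minus strand), Klf9 (chromosome 19, 23141226 to 23168134, plus strand), Klf15 (chromosome 6, 90462576 to 90475238, plus strand), Zbtb16 (chromosome 9, 48654297 to 48836222, minus strand) and Cebpd (chromosome 16, 15887286 to 15891031, plus strand). Each value is over the exons of the gene.

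The windows before the members' start sites were read first, because the genes share a regulator. RefSeq promoter windows of 250 bases before and 50 after a start site (build GRCm38.p6) were held for 7 of the 9 members, as 15 windows in all, and Cebpd and Zbtb16 had no entry. Both strands were searched for the full receptor palindrome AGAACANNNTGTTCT, its shorter core ACANNNTGT, the hexamer AGAACA and the E-box CACGTG, a site used by the circadian clock and other factors. The core and the hexamer lie inside the full palindrome and so are counted with it. The full palindrome occurred in 3 of 32817 windows of all genes (0.00914%), and 1 of these belonged to Sgk1, 189 bases before a start site at position 21993890 of chromosome 10, among 6 start sites of that gene. The core occurred in 2 windows of the members, both of Sgk1 (6.85% of all windows), and the hexamer in 4 windows, of Sgk1 and Tsc22d3 (19.0% of all windows). The E-box occurred in 3 windows of the members, of Fkbp5, Klf15 and Sgk1 (7.15% of all windows). The 3 stretches below are the 250 bases before a start site and are shown because they carry the palindrome of Sgk1 (chr10:21993640-21993889, plus strand) and the E-boxes of Klf15 (chr6:90462326-90462575, plus strand) and Fkbp5 (chr17:28486150-28486399, minus strand). Capitals mark the palindrome in Sgk1 and the E-boxes in the other pair.
Sgk1: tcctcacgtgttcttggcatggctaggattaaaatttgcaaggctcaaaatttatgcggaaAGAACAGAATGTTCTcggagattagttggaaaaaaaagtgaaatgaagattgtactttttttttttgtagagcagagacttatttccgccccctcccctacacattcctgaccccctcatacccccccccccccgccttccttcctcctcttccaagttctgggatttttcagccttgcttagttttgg
Klf15: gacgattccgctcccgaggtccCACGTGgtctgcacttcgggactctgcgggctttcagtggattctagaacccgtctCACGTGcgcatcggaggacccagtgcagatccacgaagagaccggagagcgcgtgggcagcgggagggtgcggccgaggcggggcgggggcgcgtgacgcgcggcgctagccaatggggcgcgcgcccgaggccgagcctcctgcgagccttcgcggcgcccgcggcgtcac
Fkbp5: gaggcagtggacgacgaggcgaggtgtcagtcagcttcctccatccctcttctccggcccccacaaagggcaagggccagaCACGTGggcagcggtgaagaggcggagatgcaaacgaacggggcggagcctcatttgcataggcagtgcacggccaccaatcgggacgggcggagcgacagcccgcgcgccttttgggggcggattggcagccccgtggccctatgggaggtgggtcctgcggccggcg
The Klf15 E-boxes start 228 and 172 bases before its start site, and another starts 3 bases before it and runs across it. In Fkbp5 the E-box starts 169 bases before the start site. These matches are letters in a window, and no binding was measured here.

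The values correspond to an estimated 50.7 to 54.7 reads per mouse in units of 1000000, and the reads behind a member ran from 309 (the lowest Ddit4 value) to 9431 (the highest Tsc22d3 value). Markers of skeletal muscle fibers (12 genes, none at 0 in any group) summed to 64200 to 69500 TPM in Control, 62490 to 70860 in Control + rFibcd1, 56920 to 65140 in LLC + rFibcd1 and 54460 to 58010 in LLC mice. The LLC mice lay below both tumor-free groups. Mitochondrially encoded transcripts took 41.3% to 50.4% of the TPM of a mouse. The share was 45.9% to 48.4% in Control and 41.3% to 44.3% in LLC mice. It was 45.4% to 50.4% in Control + rFibcd1 and 43.7% to 46.5% in LLC + rFibcd1 mice. TPM values have the same total in each mouse, so a lower share here goes with higher values of other genes. Because this is bulk tissue, fewer cells of a type and less RNA per cell cannot be told apart.

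**Figure D1:**
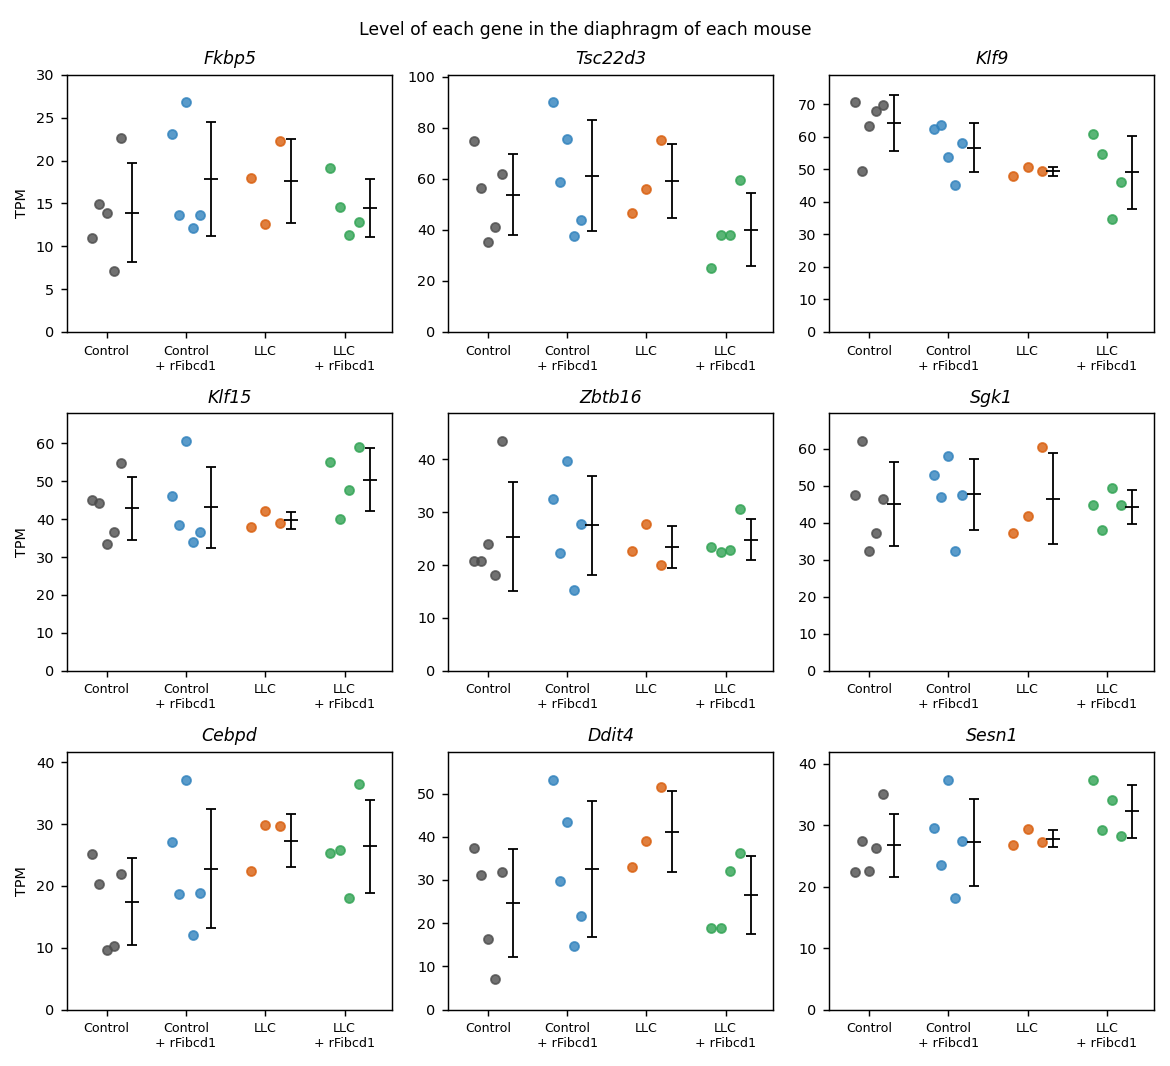
Level of the 9 genes in each mouse, in TPM, by group. Each point is a mouse, and the bar beside the points is the mean with its SD (n = 5, 5, 3 and 4). The points of the tumor-bearing and tumor-free groups overlap for each gene, and Klf9 sits lowest in an LLC + rFibcd1 mouse at 34.8 TPM.

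On the TPM scale, which is corrected for length, the levels averaged over the 17 mice ran from 55.8 ± 9.93 for Klf9 and 53.7 ± 17.8 for Tsc22d3 (SD, n = 17) down to 15.9 ± 5.28 for Fkbp5. Between these lay Sgk1 at 45.9 ± 8.94, Klf15 at 44.2 ± 8.64, Ddit4 at 30.3 ± 12.8, Sesn1 at 28.4 ± 5.29, Zbtb16 at 25.5 ± 7.45 and Cebpd at 22.9 ± 8.04 TPM. Neighbors in this order lay closer together than the larger of their SDs, except Klf15 and Ddit4. Ddit4 had the widest range between mice, 7.54-fold from 7.05 to 53.2 TPM, and Klf15 the narrowest, 1.81-fold from 33.5 to 60.6 TPM.

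The first comparison asked which transcripts differ in the diaphragm of tumor-bearing mice. Among the members only Klf9 passed the test there, and it was lower. Klf9, a zinc finger repressor, was at 70.7, 49.6, 63.5, 68.0 and 69.8 TPM in the Control mice and at 62.5, 63.7, 53.8, 45.2 and 58.0 TPM in the Control + rFibcd1 mice. It was at 48.1, 50.8 and 49.4 TPM in the LLC mice and at 60.8, 54.6, 34.8 and 46.0 TPM in the LLC + rFibcd1 mice. The LLC mice lay close together and below 4 of the 5 Control mice, but Control replicate 2 lay among them, and the LLC + rFibcd1 mice overlapped both tumor-free groups. In tumor-bearing against tumor-free mice (7 against 10), Klf9 was lower by -0.30 ± 0.11 on the log2(TPM + 1) scale (SE; limma, adjusted p = 0.0353), a 0.815-fold level. An exact permutation test on all 19448 ways to divide the mice gave p = 0.017, two-sided and unadjusted. In the same comparison 44.8% of all genes tested passed, so 1 of 9 members is a smaller share than among genes at large. By the unadjusted p under 0.05 it was again 1 of 9 members against 53.5% of all genes, and by groups that do not overlap 0 of 9 against 2.26%.

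That call was close to the threshold. It was lost without any of 8 single mice (Control replicates 1, 3, 4 and 5, LLC + rFibcd1 replicates 3 and 4, and LLC replicates 1 and 3), where the adjusted p reached 0.0661 at most, while the difference stayed between -0.35 and -0.22 over the 17 fits that each left out a mouse. Klf9 stayed lower under each scaling tried, between -0.46 and -0.30. Muscle fiber markers were lower in the same comparison, with 7 of 12 passing (limma), against 5.98% of all genes that were lower, and 4 or 7 with the other scalings. Their part in the Klf9 difference was not tested.

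In LLC against Control, no member passed at an adjusted p under 0.05, and Klf9 alone had an unadjusted p under 0.05 (limma). Klf9 differed by -0.36 ± 0.16 (log2, SE; unadjusted p = 0.0365, adjusted p = 0.0825), with a 95% interval from -0.70 to -0.03. The exact permutation test gave p = 0.0536 for it, where the smallest value that 3 against 5 mice allow is 0.0179. Over all genes, 35.8% passed the adjusted threshold, 48.3% the unadjusted one, and 40.2% had groups that did not overlap, against 0, 1 and 0 of the 9 members. It passed without Control replicate 2 (adjusted p = 0.0309) and without LLC + rFibcd1 replicate 3 (adjusted p = 0.0407), and under each of 3 other scalings, with adjusted p between 0.0214 and 0.0398. The median difference of the members was 0.07, against 0.16 over all genes. The whole comparison leaned on LLC replicate 3, without which 24 genes passed, and on LLC replicate 1, without which 2254 passed in place of 4759.

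**Figure D2:**
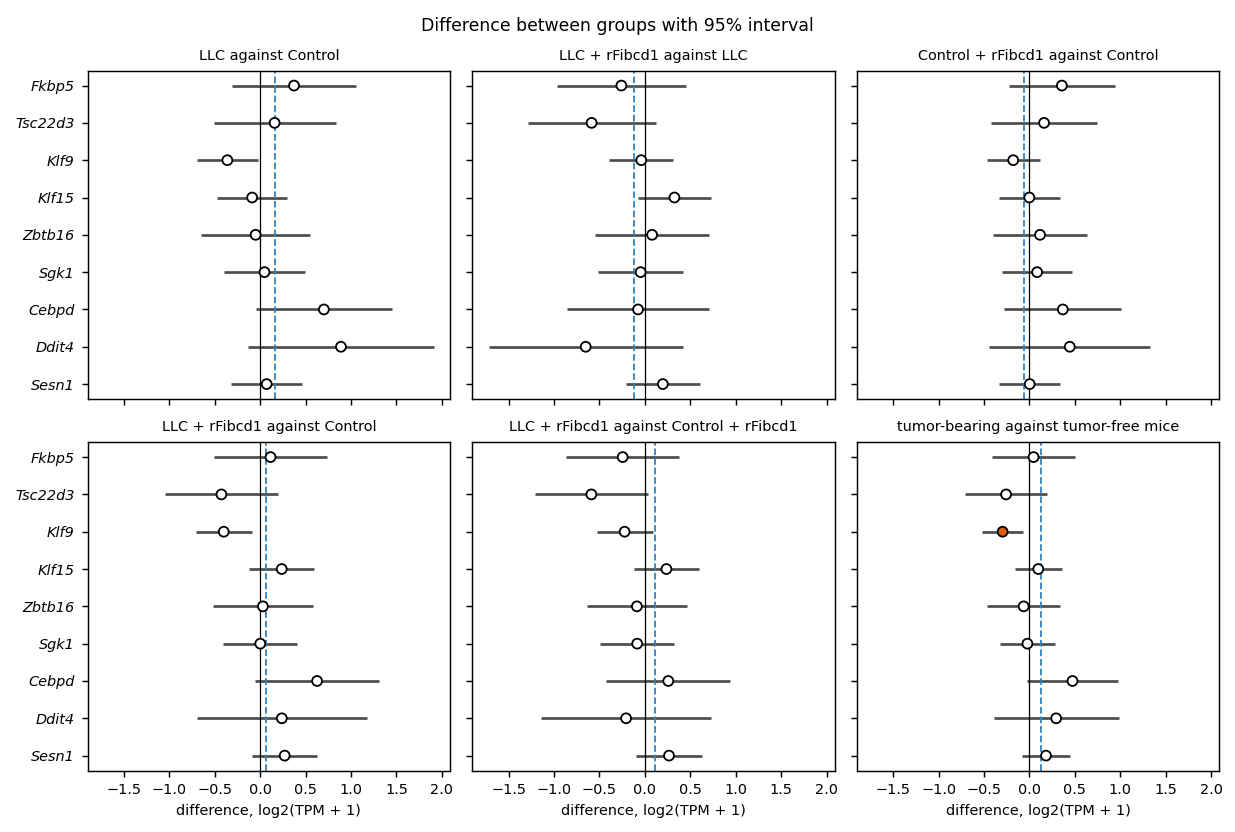
Difference between groups for each gene on the log2(TPM + 1) scale (x axis) in 6 comparisons, with its 95% interval from limma as a line. A filled point passed at an adjusted p under 0.05, the solid vertical line is 0 and the dashed line is the median of all 13305 genes. Klf9 in tumor-bearing against tumor-free mice is the only filled point, and the Ddit4 intervals are the widest.

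The members of highest difference in LLC mice were those of highest spread. Ddit4, an mTORC1 inhibitor that low oxygen and low energy also induce, was at 37.3, 31.1, 16.4, 7.05 and 31.7 TPM in the Control mice and at 33.0, 38.9 and 51.4 TPM in the LLC mice. The 3 LLC mice lay above 4 of the 5 Control mice and overlapped the fifth. The difference was 0.89 ± 0.48 (log2, SE) with a 95% interval from -0.13 to 1.91 (limma, adjusted p = 0.151). In the LLC + rFibcd1 mice Ddit4 was at 18.9, 18.9, 31.99 and 36.2 TPM, in the lower part of the LLC range or below it. The Control + rFibcd1 mice covered both, at 53.2, 29.7, 43.5, 14.7 and 21.6 TPM.

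Cebpd, a basic leucine zipper factor that inflammatory cytokines also induce, was at 25.2, 20.3, 9.63, 10.3 and 22.0 TPM in the Control mice. It was at 22.3, 29.9 and 29.7 TPM in the LLC mice, of which a single mouse lay within the Control range. The difference was 0.70 ± 0.35 (log2, SE; 95% interval -0.04 to 1.45; limma, adjusted p = 0.124). The LLC + rFibcd1 mice were at 25.3, 25.8, 18.1 and 36.4 TPM and differed from Control by 0.63 ± 0.32 (adjusted p = 0.298). The Control + rFibcd1 mice ran from 12.1 to 37.2 TPM and held both the lowest LLC value and the highest. An exon of Cebpd overlaps exons of Spidr on the other strand, and whether reads were counted by strand is not settled by the sources used here. Spidr itself was at 1.1 to 2.45 TPM.

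The remaining members did not pass in LLC against Control, and their intervals still allow sizeable differences in either direction. Fkbp5 was at 10.97, 15.0, 13.9, 7.13 and 22.7 TPM in the Control mice and at 17.9, 12.6 and 22.3 TPM in the LLC mice. These ranges overlapped for each LLC mouse, and the difference was 0.37 ± 0.32 (log2, SE; 95% interval -0.31 to 1.05). For Tsc22d3 the interval ran from -0.51 to 0.83, for Zbtb16 from -0.65 to 0.55, for Sgk1 from -0.40 to 0.49, for Klf15 from -0.48 to 0.30 and for Sesn1 from -0.32 to 0.46.

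The second comparison asked whether rFibcd1 changed these transcripts in mice with tumors. None of the 9 members passed in LLC + rFibcd1 against LLC at the adjusted or at the unadjusted threshold (limma), where 0.113% and 22.7% of all genes did. No member had groups that did not overlap, against 14.6% of all genes. The smallest adjusted p among the members was 0.267, for Tsc22d3. The median difference of the members was -0.05, against -0.11 over all genes. The exact permutation test made no call either, with a smallest reachable p of 0.0286 for 4 against 3 mice.

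Tsc22d3 was at 46.5, 55.9 and 75.1 TPM in the LLC mice. It was at 25.1, 38.0, 38.0 and 59.5 TPM in the LLC + rFibcd1 mice, of which 3 lay below the LLC range. The difference was -0.59 ± 0.33 (log2, SE; 95% interval -1.29 to 0.12). In the tumor-free mice Tsc22d3 ranged from 35.1 to 74.9 TPM in Control and from 37.6 to 90.1 TPM in Control + rFibcd1, and 3 of the 4 LLC + rFibcd1 mice lay inside both ranges. Klf15, which drives genes of branched-chain amino acid breakdown in muscle, was at 37.8, 42.3 and 38.9 TPM in the LLC mice and at 55.0, 40.1, 47.6 and 59.0 TPM in the LLC + rFibcd1 mice. All but 1 of the LLC + rFibcd1 mice lay above the LLC range. Its difference was 0.33 ± 0.19 (log2, SE; 95% interval -0.08 to 0.73; limma, adjusted p = 0.28).

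The other members overlapped between the LLC and LLC + rFibcd1 mice. Fkbp5 was at 19.1, 14.6, 11.3 and 12.9 TPM in the LLC + rFibcd1 mice, of which 1 lay below the LLC range, and its difference was -0.26 ± 0.33 (log2, SE; 95% interval -0.97 to 0.45). Sgk1 ran from 37.2 to 60.4 TPM in the LLC mice and from 38.1 to 49.4 TPM in the LLC + rFibcd1 mice, a difference of -0.05 ± 0.22 (log2, SE). For Zbtb16 the ranges were 19.97 to 27.7 and 22.4 to 30.7 TPM, and for Sesn1 they were 26.7 to 29.4 and 28.3 to 37.4 TPM. The Sesn1 difference was 0.20 ± 0.19 with a 95% interval from -0.21 to 0.61.

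In mice without tumors, rFibcd1 gave no call among the members or among all genes. None of the 9 members passed in Control + rFibcd1 against Control at either threshold (limma), where 0% of all genes passed the adjusted and 4.39% the unadjusted one, and none had groups that did not overlap, against 0.812% of all genes. The exact permutation test made no call among the members in this comparison. Ddit4 had the largest difference, 0.44 ± 0.42 (log2, SE; 95% interval -0.44 to 1.33), and Klf15 the smallest, with an interval from -0.34 to 0.33. Both groups of mice share the spread described below.

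The comparisons of LLC + rFibcd1 mice with the tumor-free groups share mice with those above. Against Control, no member passed the adjusted threshold and 1 the unadjusted one, against 3.08% and 19.9% of all genes, and none had groups that did not overlap, against 8.88%. That member was Klf9, with a difference of -0.40 ± 0.14 (log2, SE; unadjusted p = 0.0142, adjusted p = 0.142, limma). Against Control + rFibcd1, none passed at either threshold, against 8.06% and 28.5% of all genes, and none had groups that did not overlap, against 8.91%. The exact permutation test made no call among the members in either comparison. The interaction of tumor and rFibcd1, which compares the rFibcd1 difference in the presence of a tumor with that in its absence, gave 0 of 9 members at both thresholds, against 0% and 8.58% of all genes. Ddit4 had the largest interaction term, -1.09 ± 0.65 (log2, SE), with a 95% interval from -2.48 to 0.29.

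The members varied more than most genes between mice of the same group, as did other genes known to be induced by glucocorticoids. The residual SD on the log2 scale, after the group means were removed, was 0.15 for the median gene. It was 0.70 for Ddit4, 0.51 for Cebpd, 0.47 for Fkbp5, 0.46 for Tsc22d3 and 0.41 for Zbtb16, which placed them at the 95.5th, 92.9th, 91.5th, 91.4th and 89.5th percentile of all genes tested. Sgk1 lay at the 83.7th percentile, Sesn1 at the 79.5th, Klf15 at the 79.3rd and Klf9, the steadiest of the 9, at the 73.8th. The share of a gene's variance that lay between the 4 groups had a median of 43.1% over all genes. For each member it was lower, from 1.92% for Sgk1 and 2.74% for Zbtb16 to 27.1% for Cebpd and 39.2% for Klf9. The residual SD of the 23 other glucocorticoid-induced genes ran from 0.162 to 0.806, at a median percentile of 88.6 against 89.5 for the members, and 19 of them lay within the members' range. For 16 clock genes the median percentile was 78.5, with 11 within that range, and for 9 inflammatory genes that glucocorticoids repress it was 88.6. These are descriptions across genes, and genes are not independent replicates.

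**Figure D3:**
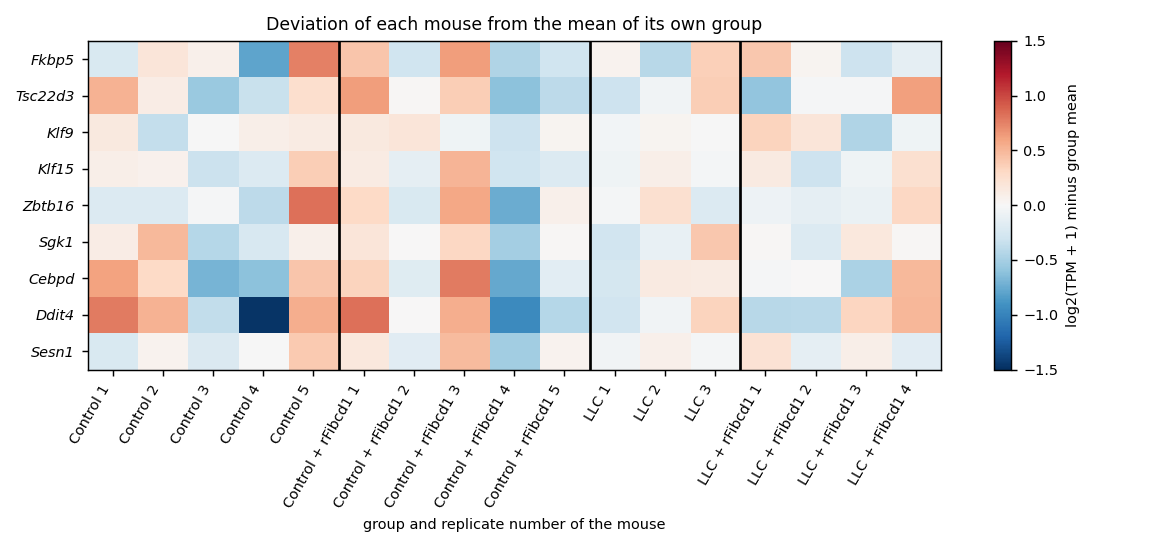
Deviation of each mouse (columns) from the mean of its own group for each gene (rows), as log2(TPM + 1) minus the group mean, red above and blue below. Black lines separate the groups. In several tumor-free mice nearly the whole column shares a color, with all 9 genes below the group mean in Control + rFibcd1 replicate 4 and all 9 above it in Control replicate 5. In LLC replicate 1, a tumor-bearing mouse, 1 of 9 genes was above its group mean.

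Within the tumor-free groups, members of several mice lay together on one side of the group mean. In Control + rFibcd1 replicate 4 all 9 members were below the mean of the group, with deviations on the log2 scale from -0.30 (Klf15) and -0.31 (Klf9) to -0.96 (Ddit4) and a mean of -0.58. In replicate 1 of that group all 9 were above it, by 0.35 on average, and in replicate 3 it was 8 of 9, by 0.46. Among the Control mice, replicate 5 had all 9 above the group mean (0.42 on average), while replicates 3 and 4 had 1 of 9 above (-0.28 and -0.44). The other tumor-free mice (Control replicates 1 and 2, Control + rFibcd1 replicates 2 and 5) lay between -0.14 and 0.17 on average, and the tumor-bearing mice between -0.14 and 0.20. Of the tumor-bearing mice, LLC replicate 1 also had 1 of 9 members above its group mean, and the others had 3 to 6 of 9. The difference between tumor-bearing and tumor-free mice in this respect was not tested, and for the same spread, deviations from a group mean tend to be smaller in groups of 3 or 4 than of 5.

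The pattern can be read gene by gene in the Control + rFibcd1 mice, where replicates 1, 3 and 4 stood out. Fkbp5 was at 23.1, 13.7, 26.8, 12.1 and 13.6 TPM in replicates 1 to 5. Sgk1 was at 53.0, 46.9, 58.1, 32.5 and 47.5 TPM in the same order, again lowest in replicate 4 and highest in replicate 3. Zbtb16 was at 32.5, 22.3, 39.8, 15.3 and 27.8 TPM, and Sesn1 at 29.6, 23.5, 37.3, 18.2 and 27.4 TPM. In these genes, and in Klf15 and Cebpd, replicate 3 was above replicate 1 and replicate 1 above replicate 4. In Tsc22d3 (90.1, 75.6 and 37.6 TPM in replicates 1, 3 and 4), Ddit4 (53.2, 43.5 and 14.7 TPM) and Klf9 (62.5, 53.8 and 45.2 TPM) replicate 1 was above replicate 3, and Klf9 was highest in replicate 2. Replicate 4 was the lowest of the group for all 9 members.

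Among the Control mice, replicate 5 had the highest mean deviation and replicate 4 the lowest, followed by replicate 3, but the order differed between genes. Klf15 was at 44.9, 44.2, 33.5, 36.6 and 54.9 TPM in replicates 1 to 5, Sgk1 at 47.5, 62.0, 32.5, 37.2 and 46.4 TPM and Sesn1 at 22.5, 27.4, 22.6, 26.4 and 35.0 TPM. Replicate 5 was highest for Klf15 and Sesn1 and in the middle for Sgk1, for which replicate 2 was highest. Zbtb16 was at 20.7, 20.8, 23.9, 18.1 and 43.5 TPM, so replicate 5 alone stood apart and replicate 3 was the next highest. Replicate 3 was the lowest for Klf15 and Sgk1, and replicate 1 the lowest for Sesn1.

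Other features of these libraries were set beside that pattern. Control + rFibcd1 replicates 3 and 4, which lay at opposite ends, had median-ratio size factors of 0.859 and 0.847, mitochondrial shares of 48.6% and 50.4%, muscle fiber markers at 70420 and 68670 TPM, B cell markers (9 genes) at 4.11 and 7.64 TPM, T cell markers (9 genes) at 2.25 and 2.23 TPM and macrophage markers (9 genes) at 104.1 and 108.6 TPM. Neutrophil markers (8 genes) summed to 79.7 and 2.95 TPM in these mice, liver transcripts (6 genes) to 34.5 and 5.4 TPM, mesothelial markers (7 genes) to 48.04 and 27.7 TPM and adipocyte markers (8 genes) to 1022 and 1139 TPM. Among these lists, the neutrophil markers were the furthest apart between the mice by ratio, followed by the liver transcripts. Control replicates 5 and 4, also at opposite ends, had size factors of 0.953 and 0.969, mitochondrial shares of 47.5% and 48.4%, muscle fiber markers at 66640 and 67140 TPM, B cell markers at 2.8 and 32.9 TPM, T cell markers at 3.03 and 7.65 TPM and macrophage markers at 158 and 172.9 TPM. Neutrophil markers summed to 10.9 and 3.62 TPM in these mice, liver transcripts to 23.3 and 501.6 TPM, mesothelial markers to 101.2 and 93.3 TPM and adipocyte markers to 861.8 and 1037 TPM. Control + rFibcd1 replicate 1, with all 9 members above the group mean, had the highest B cell (156.6 TPM), T cell (22.9 TPM), macrophage (432 TPM), mesothelial (176.2 TPM) and adipocyte (3935 TPM) markers of its group, a size factor of 1.04, muscle fiber markers at 64140 TPM, neutrophil markers at 25.7 TPM and liver transcripts at 4.26 TPM. The part of these other cell types in the members' values was not tested.

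Covariation was then measured for each of the 36 pairs of members over the 17 mice, with group means removed. Pearson's r was positive in 34 pairs and had a median of 0.58. At an adjusted p under 0.05 (permutation within groups, two-sided, adjusted over the 36 pairs), 11 pairs passed by r, all positive, and 6 of these also by Spearman's rho. As a background, 66.7% of the 88504860 pairs of all tested genes had a positive r, their median was 0.19 and 20.8% exceeded 0.5, against 22 of the 36 pairs of members (61.1%). When the 2 mice farthest from the median of the first gene of a pair were left out, 15 of the 36 exceeded 0.5, and the lowest r was 0.001. All points come from the same 17 libraries, so shared features of a library enter every pair.

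**Figure D4:**
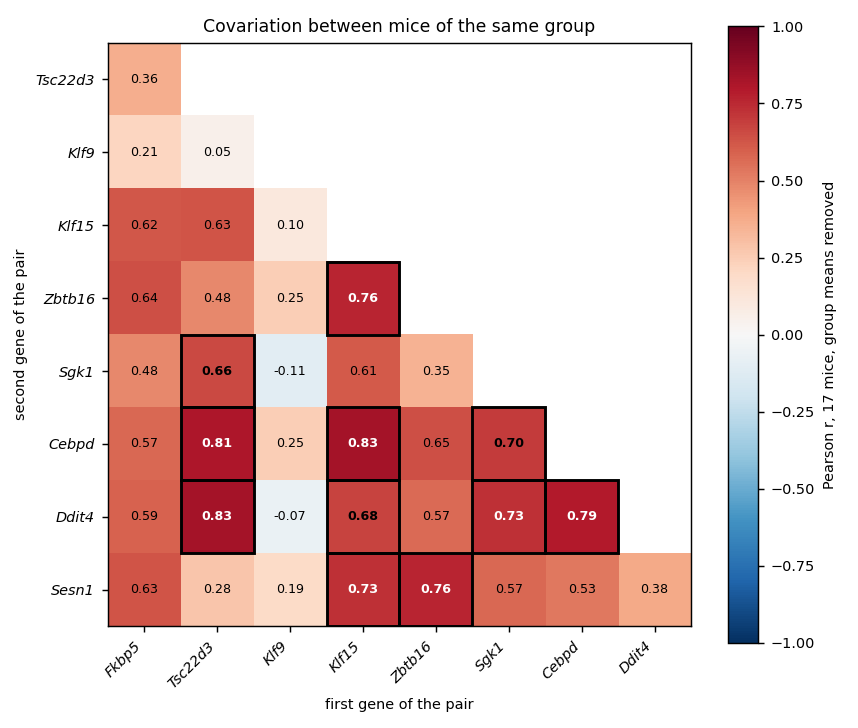
Pearson's r between each pair of genes over 17 mice after removal of the group means. Boxed cells with bold numbers passed the permutation test at an adjusted p under 0.05. The row and column of Klf9 are pale, and 11 boxed cells join the other genes except Fkbp5.

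The closest pairs were Klf15 with Cebpd and Tsc22d3 with Ddit4. For Klf15 and Cebpd, r was 0.834 and rho 0.809 (permutation within groups, n = 17, adjusted p = 0.00996 and 0.013), and r was 0.788 without the 2 mice farthest from the median of Klf15. Among all 13304 other genes, Cebpd ranked 13 by its r with Klf15. For Tsc22d3 and Ddit4, r was 0.833 and rho 0.892 (adjusted p = 0.00792 and 0.00288), and r was 0.809 without the 2 farthest mice. Tsc22d3 with Cebpd gave 0.812, Cebpd with Ddit4 0.79, Zbtb16 with Sesn1 0.762, Klf15 with Zbtb16 0.758, Sgk1 with Ddit4 0.731 and Klf15 with Sesn1 0.73. Over the 11 pairs, r without the 2 farthest mice lay between 0.478 and 0.809.

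Fkbp5 and Klf9 were in none of the pairs that passed. Fkbp5 had r between 0.212 (Klf9) and 0.642 (Zbtb16), with a median of 0.58, and its pairs with Klf15 and Sesn1 had an adjusted p of 0.0535 (permutation). Klf9 had the lowest median r of the members, 0.148, with r between -0.108 (Sgk1) and 0.249 (Zbtb16). Without the 2 mice farthest from the median of the first gene of each pair, its r ran from 0.001 (Tsc22d3) to 0.412 (Sesn1). With Sgk1 it was then 0.347. The number of pairs that passed depended on single mice. It was 3 without Control replicate 5 or without Control + rFibcd1 replicate 4, 4 without Control + rFibcd1 replicate 3, 6 without Control + rFibcd1 replicate 1 and 17 without LLC replicate 3. The median r was steadier, between 0.517 and 0.633 over the 17 sets of 16 mice.

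Beyond the members, the 5 genes most like Fkbp5 by Pearson's r over the 17 mice with group means removed were D230025D16Rik (0.906), Tinagl1 (0.892), Mt1 (0.883), Gm13091 (0.879) and Anapc16 (0.877). Mt1 encodes a metallothionein, a metal-binding protein, and was on the list of other glucocorticoid-induced genes chosen here. It was also the most abundant of the 5, between 101.6 and 231.2 TPM. In all, 6.3% of the 13304 other genes had an r above 0.5 with Fkbp5. The median r with Fkbp5 was 0.04 over all genes. Among the members, Zbtb16 ranked highest, at 246, and Klf9 lowest, at 3688. Of the lists, the receptor chaperones had the highest median r, 0.608, with 9 of 9 positive and 6 over 0.5, followed by the other glucocorticoid-induced genes at 0.379, with 18 of 23 positive and 11 over 0.5. The remaining lists had medians from -0.1 (receptor and ligand supply) to 0.09 (receptor coregulators). These values are descriptions, and all come from the same libraries.

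The receptor and the enzymes that supply its ligand gave no call. Of Nr3c1, the related mineralocorticoid receptor Nr3c2, Hsd11b1 (which makes active hormone inside cells), H6pd (which feeds it with cofactor) and Hsd11b2 (which inactivates the hormone), 4 were tested and 0 passed in each of the 7 comparisons (limma, adjusted and unadjusted). Nr3c1 was at 15 to 25 TPM and Hsd11b1 at 8.49 to 23.8 TPM over the 17 mice. Hsd11b2 stayed at or below 0.941 TPM and was not tested. None of the 9 receptor chaperones passed in any comparison either, at the adjusted or the unadjusted threshold. With quantile normalization 1 of the 4 receptor and ligand genes passed in LLC against Control and in tumor-bearing mice, and with median ratios 1 chaperone passed in tumor-bearing mice, each lower. Of the 10 receptor coregulators, 2 passed in tumor-bearing mice, both higher, against 38.8% of all genes that were higher and 5.98% that were lower there, but with median-ratio scaling it was 0 higher and 3 lower, so no direction is given for the group. In LLC against Control 1 of the 10 was higher and 1 lower, where 29.7% of all genes were higher and 6.02% lower, and with the other scalings 0 were higher and 1 to 6 lower. Ppargc1a, a coactivator that drives mitochondrial genes, fell by 1.34 on the log2 scale (SE 0.4, adjusted p = 0.0205, limma), a call that was lost without LLC replicate 1 or 3. Smarca4, a chromatin remodeling ATPase, rose by 0.21 ± 0.07 (log2, SE; adjusted p = 0.027), a call that was lost without Control replicate 5, LLC replicate 1 or LLC replicate 3 and with each other scaling.

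Other genes known to be induced by glucocorticoids passed in tumor-bearing mice at about the share of genes at large. Of 23 tested, 7 were higher and 3 lower in tumor-bearing against tumor-free mice, where 44.8% of all genes passed, with a median difference of 0.17 against 0.13 over all genes. Rescaling brought this to 4 higher and 3 lower with median ratios and to 3 higher and 4 lower with quantiles. The cell cycle inhibitor Cdkn1a rose by 0.90 ± 0.23 (log2, SE; adjusted p = 0.00811, limma) and Rgs2, a regulator of G protein signaling, by 0.73 ± 0.20 (adjusted p = 0.0107). Mstn, the muscle growth inhibitor myostatin, fell by 1.14 (SE 0.15, adjusted p = 0.000426). Against Control, Cdkn1a differed by 0.37 ± 0.34 in LLC mice (log2, SE; adjusted p = 0.407, limma). In LLC + rFibcd1 mice Cdkn1a differed by 1.31 ± 0.32 (adjusted p = 0.0383), a call lost in 12 of 27 refits. Rgs2 differed from Control by 1.01 ± 0.30 in LLC mice (adjusted p = 0.0209) and by 0.51 ± 0.28 in LLC + rFibcd1 mice (adjusted p = 0.316). In LLC + rFibcd1 against LLC 0 of the 23 passed, with 7 at an unadjusted p under 0.05, against 0.113% and 22.7% of all genes.

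Of 9 tested inflammatory genes that glucocorticoids repress, 7 were higher and 0 lower in tumor-bearing mice, against 38.8% and 5.98% of all genes, and 4 to 5 were higher with the other scalings. Il1b, a cytokine, rose by 1.34 ± 0.18 (log2, SE; adjusted p = 0.000447, limma), and Icam1, an adhesion molecule, by 0.68 ± 0.16 (adjusted p = 0.00568). Leukocyte markers moved with this list in LLC mice. B cell markers summed to 254.6 to 322.6 TPM in LLC mice against 2.8 to 109.2 TPM in Control, neutrophil markers (8 genes) to 45.4 to 106.9 against 1.95 to 14.5 TPM and macrophage markers to 367.1 to 454.2 against 158 to 274 TPM, with none of these markers at 0 throughout a group. In LLC + rFibcd1 mice B cell markers ran from 20.6 to 315 TPM and macrophage markers from 188.1 to 427.9 TPM, both overlapping Control, while neutrophil markers ran from 55.4 to 209.6 TPM and did not. Against Control, 0 of 9 B cell and 0 of 9 macrophage markers passed in these mice (limma), while 5 of 5 tested neutrophil markers passed, all higher. Of all genes, 3.08% passed in that comparison. Of the 9 inflammatory genes 1 passed there, Il1b, which rose by 1.45 ± 0.25 (log2, SE; adjusted p = 0.00614). The part of leukocytes in the inflammatory genes was not tested.

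Klf15 is known to induce genes of branched-chain amino acid and proline catabolism. Of the 10 tested, 0 were higher and 4 lower in LLC against Control, where 29.7% of all genes were higher and 6.02% lower, and with the other scalings 5 or 6 were lower. The 4 include Bckdk, a kinase that inhibits the branched-chain dehydrogenase, at -0.17 ± 0.04 (log2, SE; adjusted p = 0.0111, limma). The count therefore gives no direction for the breakdown itself. Muscle fiber markers were lower in the same comparison, 6 of 12 as deposited and 4 to 7 with the other scalings, and summed to 54460 to 58010 TPM in LLC against 64200 to 69500 TPM in Control mice. Their part in the catabolic genes was not tested. In LLC + rFibcd1 against LLC 0 of the 10 passed, with 3 at an unadjusted p under 0.05 (limma), against 22.7% of all genes. Ivd, an enzyme of leucine breakdown, fell by 0.28 in LLC mice (log2, SE 0.07, adjusted p = 0.0134), a call that was lost without LLC replicate 3. Of 17 genes of the mTORC1 pathway, on which Ddit4 and Sesn1 act, 4 were higher and 1 lower in tumor-bearing mice, against 38.8% and 5.98% of all genes, a balance that turned to 0 higher and 4 lower with median ratios. The lower gene as deposited was Deptor, an inhibitor of the complex, which fell by 0.35 (SE 0.11, adjusted p = 0.0165). This list holds activators and inhibitors of the complex together, so its counts give no direction for the activity of mTORC1.

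Clock genes were set beside the members because both follow the time of day. Of 16 tested, 2 were higher and 8 lower in tumor-bearing mice, where 38.8% of all genes were higher and 5.98% lower. In LLC + rFibcd1 against Control 1 was higher and 9 were lower, where 2.07% of all genes were higher and 1.01% lower. In both comparisons 9 or 10 were lower with the other scalings. In LLC + rFibcd1 against Control, Arntl, which encodes a core activator also called Bmal1, rose by 1.61 ± 0.24 (log2, SE; adjusted p = 0.00333, limma), and Dbp, an output factor, fell by 1.29 (SE 0.17, adjusted p = 0.00211). LLC mice differed from Control in 1 of the 16 alone, against 35.8% of all genes. This was Nr1d2, with a difference of -0.40 ± 0.11 (adjusted p = 0.018), and this call was lost without LLC replicate 3. LLC + rFibcd1 against LLC gave 0 higher and 2 lower, where 0.113% of all genes passed, and 12 of the 16 had an unadjusted p under 0.05, against 22.7% of all genes (limma), with a median difference of -0.57 against -0.11. Against Control + rFibcd1, the LLC + rFibcd1 mice had 3 clock genes higher and 7 lower, where 7.02% of all genes were higher and 1.04% lower. In the interaction of tumor and rFibcd1 0 passed, with 9 at an unadjusted p under 0.05, against 8.58% of all genes. The 2 genes that passed against LLC were Dbp (-1.11 ± 0.19) and Hlf (-1.001 ± 0.16), with adjusted p of 0.0383 and 0.0335. Both calls were lost without LLC replicate 1 or 3 or LLC + rFibcd1 replicate 1 or 4, with quantile normalization, in a fit of only those groups and with the replicate number as a block. That of Dbp was also lost without LLC + rFibcd1 replicate 2, Control replicate 1, 4 or 5 or Control + rFibcd1 replicate 2 or 5, with every other scaling tried and with a pseudocount of 0.1. The adjusted p reached 0.239 for Dbp and 0.179 for Hlf over the refits, with neither difference changing sign. With group means removed, r with Fkbp5 over the 17 mice ran from -0.634 for Bhlhe41 to 0.571 for Nfil3 among the 16 clock genes, with a median of -0.072 and 6 above 0. The part of the hour of dissection in these values cannot be told apart from the groups.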

How the data were processed

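Members and gene lists were chosen with earlier results of these data known. RNA was sequenced from the diaphragm of 17 mice. Paired reads were trimmed by the authors with CLC Genomics Workbench, mapped to GRCm38 and summarised per gene as the deposited TPM values. 0 columns were left without a sample. Groups follow the sample titles. Depth was estimated from the steps between low TPM values, with exon lengths from GENCODE vM21 (94.6% of symbols matched), and 80.8% to 83.6% of low values fell within 0.02 of a whole read.

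Differences were tested on log2(TPM + 1) with limma 3.58.1 in R 4.3.3, as a single fit over 4 groups with an expression trend (13 residual degrees of freedom), for 13305 genes at or above 1 TPM in at least 3 mice, two-sided, with Benjamini-Hochberg adjustment over all of them. A fold on this scale understates changes of low genes. Covariation was tested with 100000 permutations within groups (numpy 2.4.6). The fit was tested on simulated data. All members are named, and from each pathway list at most the 4 called genes of largest change. Alternatives were another pseudocount, filters, scalings, designs and each mouse left out. P-values measure the spread between these mice.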

Additional observations from a re-analysis of the deposited data

Results flagged for a closer look

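Within groups of 4 or 5 mice, Zbtb16 had a mouse far from the others of its group in 2 of 27 gene and group combinations checked by Dixon's criterion at the 95% level, where chance alone gives about 1 in 20. Control replicate 5 was at 43.5 TPM, with the next Control mouse at 23.9 TPM. LLC + rFibcd1 replicate 4 was at 30.7 TPM, with the next mouse of its group at 23.4 TPM. In Control replicate 5 the other 8 members were also above the mean of the group, and in LLC + rFibcd1 replicate 4 it was 5 of the other 8. The LLC group of 3 mice was too small for the criterion.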

How the results depend on the processing

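Over 63 values (9 members in 7 comparisons) and 1683 refits, 1666 kept their side of the threshold and 0 called values changed sign. In 96 refits a value called in neither fit changed sign. The exceptions were all Klf9. In LLC against Control the count of members called was 1 in place of 0 after median-ratio scaling, quantile normalization, rescaling without mitochondrial genes, a fit of only those 2 groups, and sample weights, and between 0 and 1 when single mice were left out. In tumor-bearing against tumor-free mice it was 0 in place of 1 without the filter on low values (adjusted p = 0.0541) and with the replicate number as a block, and between 0 and 1 when single mice were left out. The cause was not tested. The replicate block (Klf9, -0.285, adjusted p = 0.0728) took calls from no other member. No pairing of the mice by replicate number is given in the sources used here. Over 22 same-numbered pairs, the correlation of deviations ran from -0.459 to 0.485, with a median of -0.061 and 4 above 0.1. Pairs with different numbers were not computed, so these values do not settle whether the numbers pair mice. With the block, 5 genes in all passed in LLC against Control in place of 4759.

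The scaling moved the median of all genes in LLC against Control from 0.16 (log2) to -0.01 with median ratios, -0.10 with quantiles and 0.08 without mitochondrial genes, and the members' median from 0.07 to -0.13, -0.10 and -0.04. Among list genes, small differences turned sign with quantile normalization, namely Wdr24 (-0.019) and Nprl3 (-0.108) in LLC against Control, and Crebbp (-0.061) and Rheb (-0.026) in tumor-bearing mice, and Rheb also with median ratios (-0.035). The number of pairs of members that passed was 11 with a pseudocount of 0.1, 12 with median ratios and 3 to 17 when single mice were left out. Depth did not keep any member from being tested, and the counting error was not compared with the spread between mice.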

Other observations

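Ddit4l, the paralog of Ddit4 that also restrains mTORC1, was lower in LLC against Control, by -0.44 ± 0.12 (log2, SE; limma, adjusted p = 0.0143), where Ddit4 was at 0.89 ± 0.48 without passing. It was higher in LLC + rFibcd1 against LLC, by 0.73 ± 0.12 (adjusted p = 0.0335), with no overlap between these groups. The same 3 LLC mice enter both differences. The first call was lost without LLC replicate 3, and the second was lost when any of 6 single mice was removed and under median-ratio scaling, among others. Sesn2, the stress-induced paralog of Sesn1, was higher in LLC against Control, by 0.83 ± 0.24 (adjusted p = 0.0197), where Sesn1 was at 0.07 ± 0.18. That call was lost without LLC replicate 1 or 3 (adjusted p = 0.097 at most) and with the replicate number as a block.

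Among the 16 paralogs of members tested, 6 were higher and 0 lower in tumor-bearing mice as deposited, near the share over all genes, of which 38.8% were higher and 5.98% lower, but 0 were higher and 2 lower with median-ratio scaling, and 0 higher and 1 lower with quantile normalization.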
